A study of Mus musculus with 12 samples.

Results

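The genes described here are 10 mouse genes of fibroblast growth factor (FGF) signalling in the rostral forebrain. They are the ligand genes Fgf8, Fgf15, Fgf17 and Fgf18, and the target or feedback genes Etv4, Etv5, Spry1, Spry2, Spry4 and Dusp6. They were chosen by name, through the RefSeq accession of each array probe, without a rule on their values. Earlier results of these data were known when they were chosen. They account for 14 probes, and all 10 genes were among the 15369 whose probe was detected above background on 3 or more of the 12 arrays. Spry4 passed with 3 arrays above background, 2 of them from Dmrta2 overexpression and 1 from siRNA set 1, and Fgf17 with 11.

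The arrays measured total RNA of cells from the medial telencephalon of CD-1 embryos. Dmrta2 and Dmrt3 encode DM-domain transcription factors of the dorsomedial telencephalon. Embryos were electroporated at E11.5, and GFP-positive cells were sorted 24 hours later, at E12.5. There were 4 groups of 3 replicates: an expression plasmid for Dmrta2 (Dmrta2 overexpression), siRNAs directed at Dmrt3 and Dmrta2 jointly, in 2 sets (siRNA set 1 and siRNA set 2), and control siRNAs. Cells of every group also received a vector for nuclear EGFP, which was the basis of the sort. Dmrta2 overexpression therefore has no plasmid control here, and is set against control siRNAs and against the siRNA sets. The labels do not say whether replicates came from separate litters, so p-values measure the spread between these samples.

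FGF ligands of the rostral midline bind receptor tyrosine kinases on neighbouring progenitors and act through RAS and the MAP kinase ERK. Etv4 and Etv5 encode ETS transcription factors that are transcribed in response to this signal. The Sprouty genes and Dusp6, a phosphatase of ERK, are transcribed in response to it too and dampen it. In the telencephalon Fgf8 helps to set up rostral identity, while the DM-domain genes are known from the opposite, caudomedial side.

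The windows just before the transcription start show what the array values cannot, the DNA just upstream of these transcripts. RefSeq windows (GRCm38.p6) were searched for 5 of the 10 genes (Fgf18, Etv5, Spry1, Spry2 and Dusp6), with 6 windows of 250 bases. No window was searched for Fgf8, Fgf15, Fgf17, Etv4 or Spry4, so the motif counts below do not cover these genes. Spry1 and Etv5 are printed as genes whose overexpression and siRNA arrays did not overlap, and Dusp6 as the window with a motif match. Capitals mark a match to the DM-domain core motif TGTATC.
Spry1: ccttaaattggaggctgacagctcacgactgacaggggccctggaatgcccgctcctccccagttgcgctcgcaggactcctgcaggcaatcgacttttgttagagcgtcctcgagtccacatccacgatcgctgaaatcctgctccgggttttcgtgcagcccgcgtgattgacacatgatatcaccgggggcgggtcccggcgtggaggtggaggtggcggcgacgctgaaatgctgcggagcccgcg
Etv5: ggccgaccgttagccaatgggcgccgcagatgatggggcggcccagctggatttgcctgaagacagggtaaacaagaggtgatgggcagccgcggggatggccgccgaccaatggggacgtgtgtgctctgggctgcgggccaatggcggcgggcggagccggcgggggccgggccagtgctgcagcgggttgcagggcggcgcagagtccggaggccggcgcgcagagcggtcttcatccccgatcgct
Dusp6: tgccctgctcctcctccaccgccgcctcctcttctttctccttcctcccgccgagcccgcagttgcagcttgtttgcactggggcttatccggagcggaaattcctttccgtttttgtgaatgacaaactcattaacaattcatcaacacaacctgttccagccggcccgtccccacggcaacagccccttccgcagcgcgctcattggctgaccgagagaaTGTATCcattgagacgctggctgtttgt
These are chr3:37639697-37639946 (plus strand) for Spry1, chr16:22439571-22439820 (minus strand) for Etv5 and chr10:99262981-99263230 (plus strand) for Dusp6. Both strands were searched. TGTATC occurred once, in the Dusp6 window at position -28 from the start site, and in 0 of the other 5 windows, against 6.19% of 32851 RefSeq windows of the same length. The longer DMRT consensus, which can overlap it, had 0 matches in the 6 windows, the Dusp6 window included, against 0.706% of all windows. The ETS motif CCGGAA was in 0 of the 6, against 12% of all windows. These are matches of letters only.

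Signal was compared as log2 processed signal relative to the 75th percentile of its array, so 0 is the level that 75% of spots lie below, and 1 unit is a doubling. Levels are given per probe and are not compared between genes. The 12 arrays lay on 3 slides, 1 replicate of each group per slide, and each group was always at the same slide position, so position and group cannot be told apart. The 75th percentile ran from 572 to 1142 signal units, no spot was saturated, and 67.1% to 72.2% of spots per array were well above background. Of the targeted genes, Dmrt3 was 0.91 ± 0.26 lower (log2, SE) with the siRNA sets averaged than with control siRNAs (limma adjusted p = 0.162, or 0.0283 after blocking on the slide). Dmrta2 was 0.46 ± 0.14 lower (adjusted p = 0.204), by 0.61 ± 0.16 in set 1 and 0.31 ± 0.16 in set 2, where it overlapped control. No siRNA comparison of Dmrta2 passed, with or without the block. With the Dmrta2 plasmid the Dmrta2 probe read 2.10, 2.17 and 1.93, against 2.72, 2.37 and 2.61 with control siRNAs, so that all 3 lay below control (-0.50 ± 0.16, adjusted p = 0.574). Whether that probe lies within the sequence carried by the plasmid is not given in the sources used here, so it does not check that label, and the group is called Dmrta2 overexpression after its label alone. Dorsal telencephalic progenitor markers (7 of 7 measured, among them Emx2, Lhx2 and Pax6) averaged 2.77 to 3.01 on overexpression arrays and 2.83 to 2.98 on control arrays. They averaged 2.83 to 3.06 in set 1 and 2.78 to 3.24 in set 2. Of this list Pax6 was called lower with overexpression than with both siRNA sets, as given below.

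**Figure D1:**
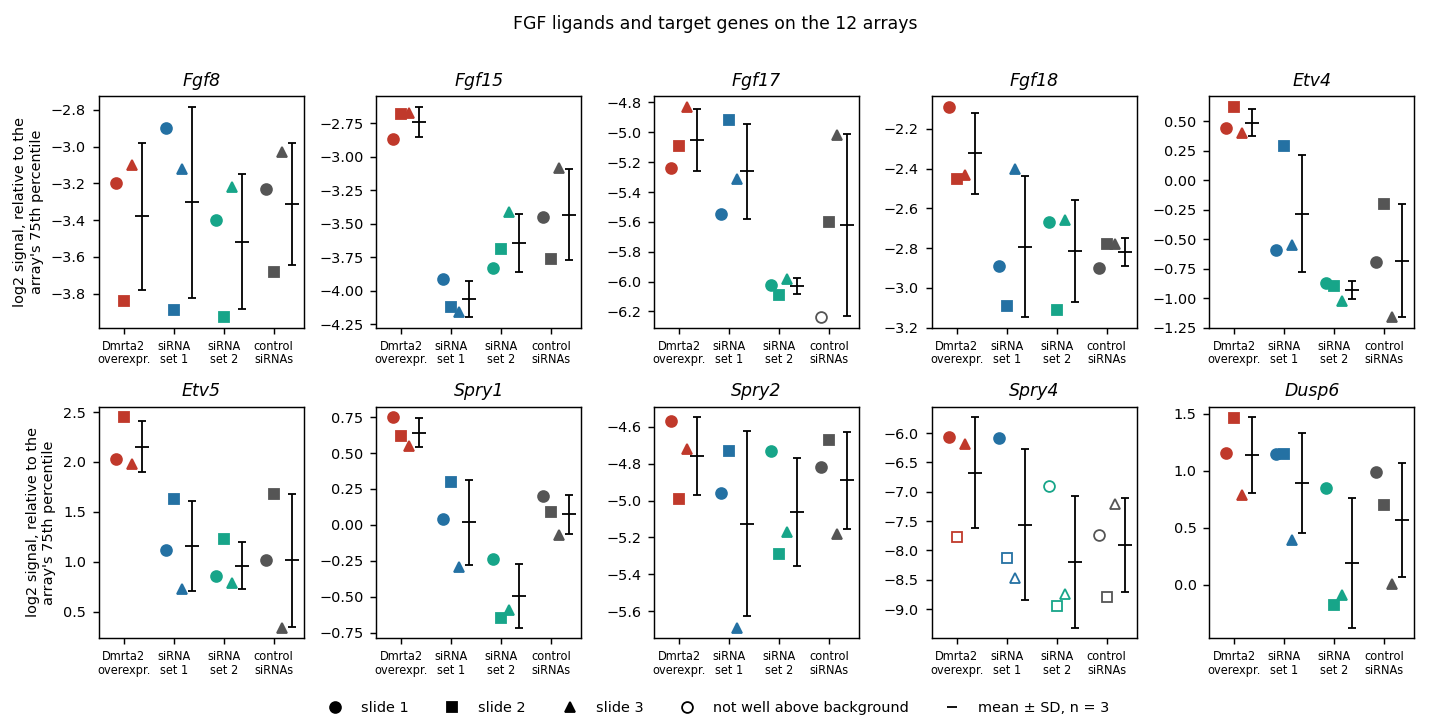
Each panel plots 1 gene on the 12 arrays, as log2 signal relative to the array's 75th percentile (vertical axis, own scale per gene), by group (horizontal axis). Shapes mark the slide, open symbols arrays where the probe was not well above background, and bars the mean ± SD (n = 3). The 3 overexpression arrays lie above all 3 control arrays for Fgf15, Fgf18, Etv4, Etv5 and Spry1, while the groups overlap for Fgf8.

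The first comparison asked whether FGF ligands and their targets differed in cells that received the Dmrta2 plasmid. Against control siRNAs, 5 of the 10 genes had all 3 overexpression arrays above all 3 control arrays: the ligands Fgf15 and Fgf18, the ETS genes Etv4 and Etv5, and Spry1. Of all genes tested, 5.68% had this order. None of the 10 passed limma's adjusted threshold of 0.05, which 0.273% of all genes passed, all of them higher. At an unadjusted p under 0.05 the same 5 genes were higher and 0 lower, against 3.74% and 0.696% of all genes. The median difference was 0.57, with or without Spry4, against 0 over all genes.

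Etv4 stood at 0.44, 0.62 and 0.40 on the overexpression arrays, in the order of slides 1, 2 and 3. It stood at -0.69, -0.20 and -1.16 on the control arrays. All overexpression arrays were above the level of the 75th percentile and all control arrays below it. The difference was 1.17 ± 0.27 (log2, SE, n = 3 each), with 1.13, 0.82 and 1.56 on the 3 slides. The limma adjusted p was 0.185, or 0.059 after blocking on the slide. The second Etv4 probe read -2.25, -1.77 and -2.01 with overexpression and -3.84, -2.72 and -4.08 with control siRNAs, which again did not overlap (1.54 ± 0.41, adjusted p = 0.364 in the fit over all probes).

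Etv5, its close relative, read 2.03, 2.45 and 1.98 on overexpression arrays and 1.02, 1.68 and 0.34 on control arrays. The array of slide 2 was the highest in each of the 4 groups. The difference was 1.14 ± 0.33 (limma adjusted p = 0.378). Blocking on the slide gave 1.14 ± 0.17 (adjusted p = 0.0378). Etv5 was the one gene of the 10 past the threshold in the blocked fit, which 0.332% of all genes passed.

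Spry1, an inhibitor of receptor tyrosine kinase signalling, read 0.75, 0.62 and 0.55 with overexpression. Its control values were 0.20, 0.09 and -0.07. The slides gave nearly equal differences, 0.55, 0.53 and 0.62, and the fit gave 0.57 ± 0.17 (limma adjusted p = 0.42). The other feedback genes overlapped between groups. Dusp6 had a difference of 0.57 ± 0.35 and Spry2 of 0.13 ± 0.25 (both adjusted p = 1). Spry4 read -6.07, -7.77 and -6.19 with overexpression, the second of these not well above background, and was above background on 0 of 3 control arrays, so no fold is given.

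Among the ligands, Fgf15 read -2.87, -2.68 and -2.67 with overexpression and -3.45, -3.76 and -3.08 with control siRNAs (0.68 ± 0.18, limma adjusted p = 0.284). Fgf18 read -2.09, -2.45 and -2.43 with overexpression and -2.90, -2.78 and -2.78 with control siRNAs (0.50 ± 0.19, adjusted p = 0.876). Both genes were higher than the control array on every slide. The second Fgf18 probe gave 0.58 ± 0.19 (adjusted p = 0.7). Fgf17 read -5.24, -5.09 and -4.83 with overexpression, against -6.24, -5.60 and -5.02 with control siRNAs, so that the groups overlapped, and the control of slide 1 was not well above background.

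Fgf8, the best known ligand of the rostral midline, read -3.20, -3.84 and -3.10 with overexpression and -3.23, -3.68 and -3.03 with control siRNAs. The arrays of slide 2 were the lowest in both groups. The difference was -0.07 ± 0.31 (limma adjusted p = 1). A second Fgf8 probe gave 0.25 ± 0.39, and the remaining one was well above background on 0 of the 12 arrays. In bulk RNA of sorted cells, fewer cells that express a gene and less RNA per cell cannot be told apart.

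**Figure D2:**
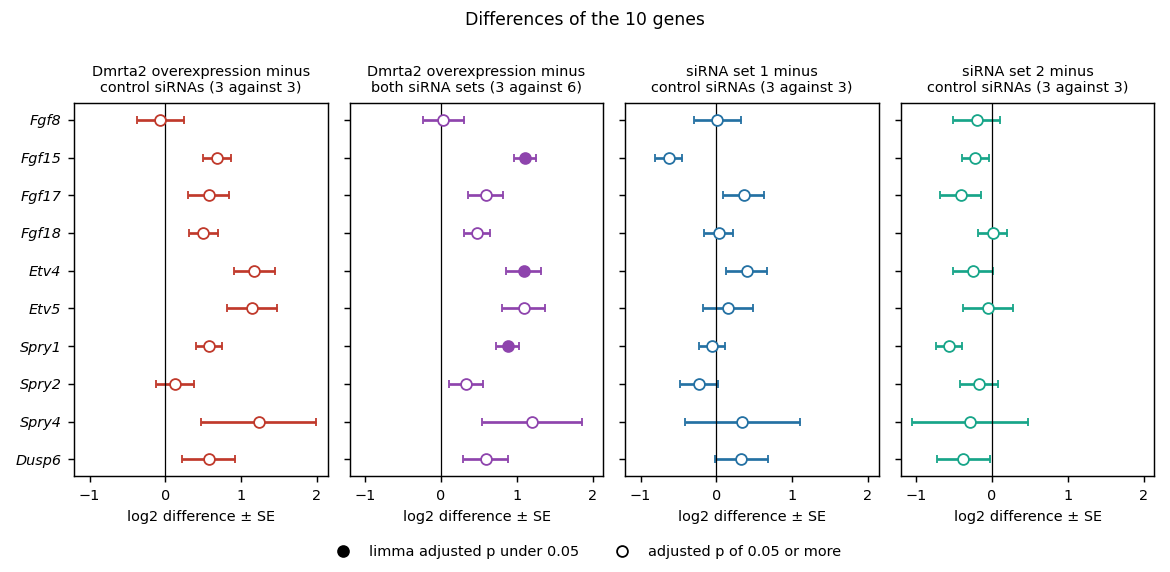
Log2 differences (horizontal axis) of the 10 genes (rows) with SE bars, in 4 comparisons. Filled symbols passed limma's adjusted threshold of 0.05. Fgf15, Spry1 and Etv4 are filled for Dmrta2 overexpression minus both siRNA sets, and no gene is filled in the other panels.

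The second comparison set the overexpression arrays against the siRNA arrays. The Dmrta2 probe differed by -0.04 ± 0.14 between them (limma adjusted p = 0.963). This comparison shares its overexpression arrays with the one above. Against both siRNA sets averaged, 3 of the 10 genes rose (Fgf15, Spry1 and Etv4) and 0 fell, while 1.3% of all genes tested were called higher and 0.846% lower. Spry4 was kept mainly through the overexpression arrays. The median difference was 0.59 over the other 9 genes and 0.74 with Spry4, against 0.01 over all genes. The 3 overexpression arrays lay above all 6 siRNA arrays for Fgf15, Etv4, Etv5 and Spry1, an order that 3.77% of all genes had.

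Fgf15 had the lowest adjusted p of the 10. Its siRNA arrays read -3.91, -4.12 and -4.16 in set 1 and -3.83, -3.69 and -3.41 in set 2, all below the 3 overexpression values. It was 2.16-fold higher with overexpression, a log2 difference of 1.11 ± 0.15 (limma adjusted p = 0.00496), with 0.99, 1.22 and 1.11 on the 3 slides. With normexp background correction the difference was 0.66 (adjusted p = 0.0206).

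Spry1 read 0.04, 0.30 and -0.29 in set 1 and -0.24, -0.65 and -0.59 in set 2, below every overexpression array. It was 1.84-fold higher with overexpression (0.88 ± 0.15, limma adjusted p = 0.0129). The call was lost when any 1 overexpression array was left out (adjusted p of 0.0679, 0.0647 and 0.0566 without replicates 1, 2 and 3), while the difference stayed between 0.82 and 0.92.

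Etv4 read -0.59, 0.29 and -0.55 in set 1 and -0.87, -0.90 and -1.02 in set 2. The slide 2 array of set 1 was the highest of the 6 and lay closest to the overexpression values. It was 2.14-fold higher with overexpression (1.09 ± 0.23, limma adjusted p = 0.04). This call was near the threshold: it held in 13 of 24 other settings, and in 3 of the 12 fits that left out 1 array, with adjusted p up to 0.178. The second Etv4 probe gave 1.42 ± 0.36 (adjusted p = 0.0843).

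Etv5 read 1.12, 1.63 and 0.73 in set 1 and 0.86, 1.23 and 0.79 in set 2. Its difference of 1.09 ± 0.28 was as large as that of Etv4 but missed the threshold (limma adjusted p = 0.088). With the slide as a block it passed (adjusted p = 0.00693), as did 1.94% of all genes, higher. Fgf15, Spry1 and Etv4 passed in that blocked fit too (limma adjusted p of 0.00626, 0.00687 and 0.0118). Fgf17 (0.59 ± 0.23), Dusp6 (0.59 ± 0.30), Fgf18 (0.48 ± 0.17), Spry2 (0.33 ± 0.22) and Fgf8 (0.03 ± 0.27) did not pass, with adjusted p from 0.219 to 0.988. Spry4 did not pass either, and no difference is given, since it was above background on 1 of 6 siRNA arrays. The second Fgf18 probe gave 0.66 ± 0.17 (limma adjusted p = 0.092 in the fit over all probes). Its overexpression arrays lay above all 6 siRNA arrays, while those of the brightest Fgf18 probe overlapped them.

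Markers of some other cell types moved with these comparisons. Surface ectoderm markers (6 of 6 measured) averaged -3.35 to -3.19 on overexpression arrays, -4.45 to -3.80 in set 1, -4.33 to -4.31 in set 2 and -4.25 to -3.88 on control arrays. The keratin gene Krt8 was above background on the 3 overexpression arrays alone, so it was kept only through them. Without Krt8 the other 5 averaged -3.07 to -2.97 on overexpression arrays, -3.76 to -2.94 in set 1, -3.80 to -3.48 in set 2 and -3.43 to -3.14 on control arrays, and overexpression overlapped set 1. Microglia and macrophage markers (8 of 8 measured) averaged -2.70 to -2.46 on overexpression arrays, -3.22 to -2.95 in set 1, -2.71 to -2.40 in set 2 and -4.01 to -3.30 on control arrays. Cortical hem markers (7 of 7 measured) averaged -0.98 to -0.82 on overexpression arrays, -1.47 to -0.97 in set 1, -1.90 to -1.35 in set 2 and -2.01 to -1.23 on control arrays. Overexpression arrays also lay above control arrays in the erythroid list (5 of 6 measured, -3.28 to -2.49 against -4.59 to -3.82), the mesenchyme list (4 of 7 measured, -3.03 to -2.40 against -4.05 to -3.39) and the choroid plexus list (4 of 5 measured, -1.87 to -1.63 against -4.05 to -2.09). The siRNA arrays ran from -4.24 to -1.65 in set 1 and -3.41 to -2.89 in set 2 for the erythroid list, from -3.30 to -0.23 and from -3.81 to -3.50 for mesenchyme, and from -1.65 to -0.47 and from -2.23 to -1.19 for choroid plexus. Some members were mostly below background with control siRNAs. Alas2 (erythroid) was above it on 0 of 3 control arrays. Pdgfra (mesenchyme), C1qa (microglia) and Epcam (surface ectoderm) were above it on 1 of 3. All were above it on 3 of 3 overexpression arrays, and no averages without them were made. The remaining lists overlapped between overexpression and control arrays. Rostral midline and septum markers averaged 0.13 to 0.53 against -0.2 to 0.33, and endothelium -3.71 to -2.36 against -4.17 to -3.39. Cajal-Retzius markers averaged -2.49 to -1.87 against -3.15 to -2.17, and subpallium -4.94 to -4.62 against -5.27 to -4.59. Postmitotic neuron markers averaged 2.55 to 3.25 against 2.73 to 3.68. In set 1 and set 2, rostral midline markers ran from 0.35 to 0.99 and 0.11 to 0.43. Endothelium ran from -3.77 to -2.8 and -4.1 to -2.27, and Cajal-Retzius from -2.17 to -1.62 and -2.78 to -2.46. Subpallium ran from -4.31 to -4.18 and -4.92 to -3.97, and postmitotic neurons from 3.32 to 3.49 and 2.58 to 3.53. For these last lists every set 1 array lay above every overexpression array. The part of any of these cells in the FGF gene differences was not tested.

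The third comparison asked whether the same genes differed in cells that received the siRNAs against Dmrt3 and Dmrta2. None of the 10 passed with either siRNA set or with both averaged, where 0.234% (set 1), 1.02% (set 2) and 0.67% (both) of all genes passed. At an unadjusted p under 0.05, 1 gene was lower in each comparison and 0 higher. Of all genes, 3.96% were lower and 6.06% higher by that measure in set 1, 5.24% and 7.59% in set 2, and 4.82% and 7.26% for both sets averaged. Without Spry4, the median difference of the other 9 was 0.03 for set 1, -0.22 for set 2 and -0.02 for both.

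The sets share their control arrays, and each had 1 gene whose 3 arrays lay below all controls. Fgf15 had all 3 set 1 arrays below all 3 controls (-0.63 ± 0.18, limma adjusted p = 0.216), an order 7.31% of all genes had, and its difference in set 2 was -0.22 ± 0.18. Spry1 had all 3 set 2 arrays below all controls (-0.57 ± 0.17, adjusted p = 0.169, or 0.0723 after blocking on the slide), an order 7.87% of all genes had, and its difference in set 1 was -0.06 ± 0.17. Fgf8 differed by 0.01 ± 0.31 in set 1 and -0.20 ± 0.31 in set 2. Set 2 against set 1, 0 of the 10 passed (0.0781% of all genes did). The nearest were Spry1 (-0.51 ± 0.17, adjusted p = 0.324) and Fgf17 (-0.77 ± 0.27, adjusted p = 0.361).

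**Figure D3:**
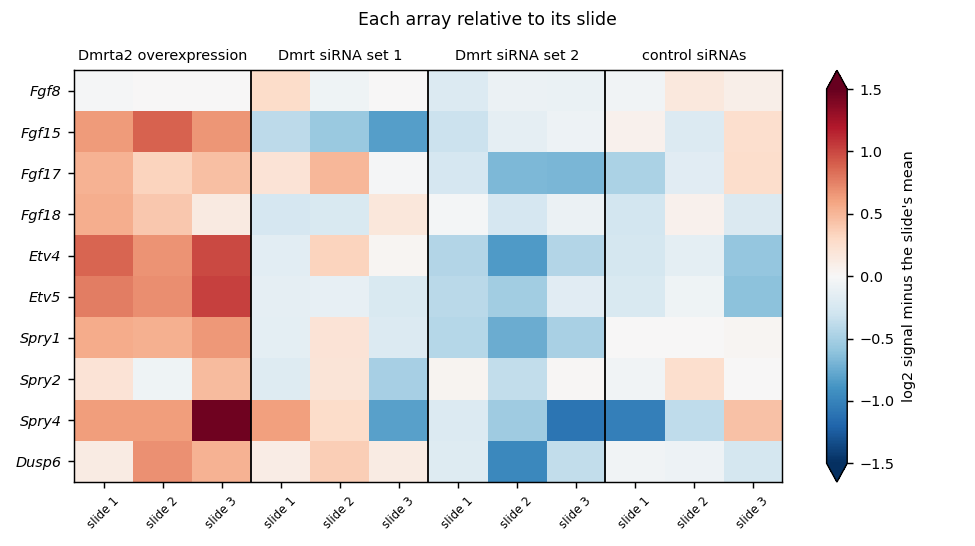
Each cell is a gene (row) on an array (column), as log2 signal minus the mean of the 4 arrays of its slide. The overexpression columns are above their slide's mean for Fgf15, Fgf17, Fgf18, Etv4, Etv5, Spry1 and Dusp6 on all 3 slides. Colour is limited to 1.5 units either way.

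The genes also differed in how they ran together. After each slide's mean was removed, likeness was measured as Pearson's r over the 12 arrays against 15294 other genes, as a description only, since the arrays share the 4 groups. Etv5 was the gene ranked 7th for likeness to Etv4 (r = 0.937), and Etv4 the one ranked 9th for Etv5. Spry1 ranked 20th for Etv4 (r = 0.91). Dusp6 was less close to Etv4 (r = 0.854, rank 100), and Fgf8 was far from it (r = 0.103, rank 5883). The genes most like Etv4 were Cbln1 (r = 0.965), Pde2a (r = 0.958) and Cilp (r = 0.952). Cilp also led for Etv5 (r = 0.978), Slc27a3 for Spry1 (r = 0.985) and Scamp4 for Fgf15 (r = 0.975).

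The rest of the FGF pathway was read from lists by role. Of 18 other genes of the FGF family, 10 were measured and 1, Fgf1, rose with overexpression. Fgf1, which encodes an FGF that binds all FGF receptors, read -4.45, -4.98 and -4.97 with overexpression and -6.32, -6.09 and -6.02 with control siRNAs. The difference was 1.34 ± 0.20 against control siRNAs (limma adjusted p = 0.0201) and 1.29 ± 0.17 against both siRNA sets (adjusted p = 0.00402). The lowest control was not well above background, and with normexp background correction the differences were 0.36 (adjusted p = 1) and 0.46 (adjusted p = 0.173). The call against control siRNAs held in 17 of 23 other settings.

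Of 15 receptor and co-receptor genes, 14 were measured and 0 passed in any comparison without the block. After blocking on the slide Ext1, which makes heparan sulphate, was higher for both siRNA sets (0.49 ± 0.09, adjusted p = 0.0452) and for set 1 (0.66 ± 0.11, adjusted p = 0.0414) than for control siRNAs. It was named after its values were seen. The receptor gene Fgfr3 averaged 4.10 ± 0.22 with overexpression and 3.98 ± 0.43 with control siRNAs (SD, n = 3 each). The glypican gene Gpc1, a co-receptor, averaged 5.91 ± 0.11 with overexpression and 5.74 ± 0.21 with control siRNAs. Of 21 RAS and MAP kinase genes, all measured, Nras was called in 4 comparisons. It read 0.52, 0.51 and 0.52 in set 2, against 1.81, 1.76 and 1.53 with control siRNAs, and it fell (-1.18 ± 0.13, limma adjusted p = 0.00644). In set 1 it read 1.66, 1.57 and 1.34, and set 2 was lower than set 1 too (-1.01 ± 0.13, adjusted p = 0.0269). Both sets averaged were lower than control siRNAs (-0.68 ± 0.11, adjusted p = 0.0313). Overexpression was higher than both sets (0.64 ± 0.11, adjusted p = 0.015), while it differed from control siRNAs by -0.04 ± 0.13. The set 2 call against control siRNAs held in 23 of 24 other settings and that against set 1 in 13. After blocking on the slide Rps6ka3, a kinase gene named after its values were seen, also passed, higher for both sets than for control siRNAs (0.70 ± 0.10, adjusted p = 0.0227) and lower with overexpression than with both sets (-0.69 ± 0.10, adjusted p = 0.00978).

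Of 30 other ERK target and feedback genes, 24 were measured, and 2 were higher and 1 lower with overexpression than with both siRNA sets (1 higher and 2 lower after blocking on the slide). In set 2 against control siRNAs 1 was lower, Myc, and after blocking 2 were lower and 1 higher. Ccnd1, the cyclin D1 gene, averaged 1.93 ± 0.38 with overexpression, 0.22 ± 0.62 in set 1, 0.15 ± 0.79 in set 2 and 1.41 ± 0.59 with control siRNAs (SD, n = 3 each). Overexpression differed from control siRNAs by 0.52 ± 0.45 (adjusted p = 1), and both siRNA sets by -1.23 ± 0.39 (adjusted p = 0.214). The difference of overexpression from both sets was 1.75 ± 0.39 (limma adjusted p = 0.0492, or 0.0692 after blocking on the slide). Myc, a growth-promoting transcription factor gene, was 0.67 ± 0.15 higher than with both siRNA sets (adjusted p = 0.0485). It averaged -2.60 ± 0.03 with overexpression and -2.68 ± 0.21 with control siRNAs, and it fell in set 2 against control siRNAs (-0.93 ± 0.17, adjusted p = 0.0383). Shisa2, related to a Xenopus protein that holds FGF and Wnt receptors inside the cell, was 0.73 ± 0.16 lower on the log2 scale (adjusted p = 0.0411). The calls against both siRNA sets held in 10 of 24 other settings for Ccnd1, 11 for Myc and 13 for Shisa2, and the set 2 call of Myc in 10.

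Of 19 rostral and area patterning genes, 16 were measured and 1 passed. Pax6, a transcription factor gene of the rostrolateral cortex, read -0.99, -0.83 and -0.78 with overexpression, 0.23, 1.30 and 0.53 in set 1, 0.04, 1.25 and 0.58 in set 2, and -0.50, -0.31 and -0.41 with control siRNAs. It was lower with overexpression than with both siRNA sets (-1.52 ± 0.27, limma adjusted p = 0.0172), but not when any 1 overexpression array was left out (adjusted p of 0.0795, 0.079 and 0.0795 without replicates 1, 2 and 3). The difference of overexpression from control siRNAs was -0.46 ± 0.31 (adjusted p = 1). That of both siRNA sets from control siRNAs was 1.06 ± 0.27 (adjusted p = 0.118, or 0.038 after blocking on the slide). Medians of these 5 lists against control siRNAs lay between 0.01 and 0.10, beside 0.57 for the 10 genes and 0 for all genes.

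**Figure D4:**
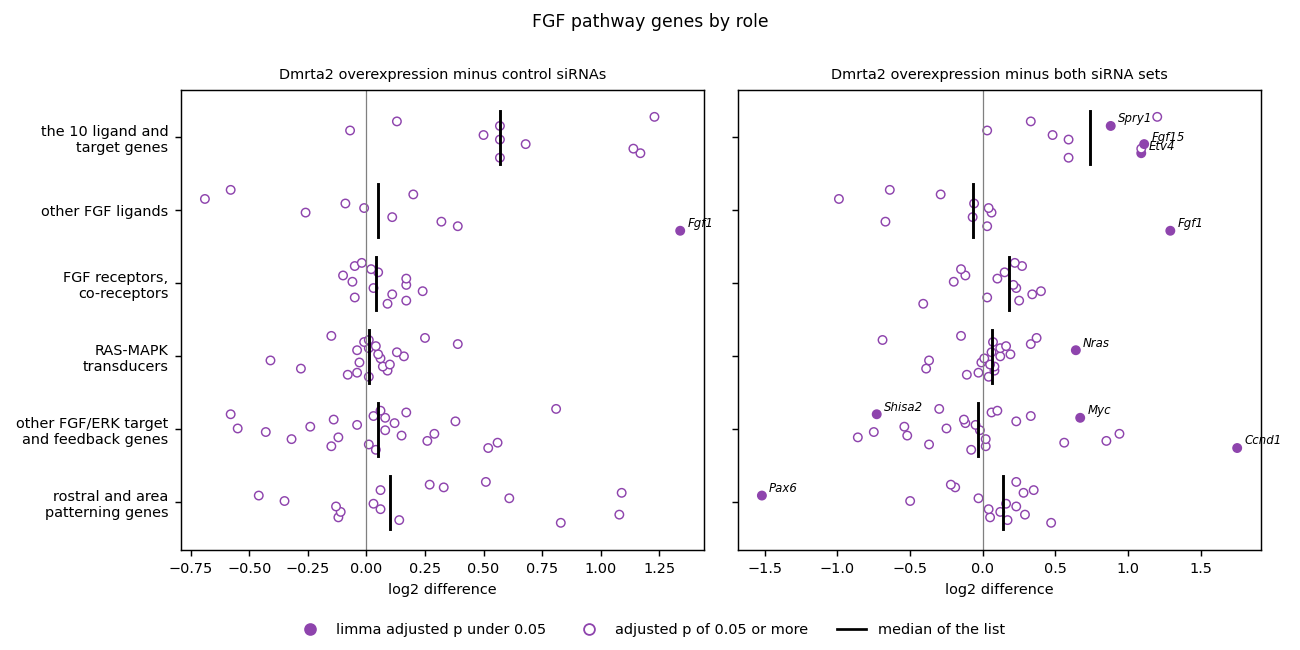
Each point is a gene's log2 difference (horizontal axis) by list (rows), for Dmrta2 overexpression minus control siRNAs (left) and minus both siRNA sets (right). Filled, named points passed limma's adjusted threshold of 0.05, and vertical bars are list medians. The median of the 10 FGF genes is 0.57 on the left and 0.74 on the right, where it is 0.59 without Spry4. Spry4 is drawn although it was above background on only 3 of the 12 arrays.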

How the data were processed

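Total RNA of 12 samples was labelled with Cy3 and hybridised to 1-colour Agilent arrays. The intensity analysed is each spot's processed signal as deposited by the authors, background-subtracted within the array by Agilent Feature Extraction 10.5.1.1, per the file headers and the submitters' processing notes. The authors' deposited table of log2 values, which set against the scanner values proved to be centred on each probe's median, served as an alternative.

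Control spots and outlier-marked spots (136 to 218 of 43020 per array) were left out, log2 values were set relative to the array's 75th percentile, and repeated spots of a probe were averaged. A gene was represented by its brightest probe well above background on at least 3 arrays. RefSeq names (GRCm38.p6) matched 26055 of 39429 probes. limma 3.58.1 in R 4.3.3 fitted the 4 groups over 15369 genes (8 residual degrees of freedom) with Benjamini-Hochberg adjustment. The fit was tested on simulated data. The simulated arrays were independent and had no slide effect, so that test does not cover the shared deviations within a slide. The number of arrays limits the precision.

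A first pass called a probe above background if any of its spots was, and took the percentile over unmarked spots. It was replaced, after its results had been seen, by a majority of spots and by all non-control spots, because these gave the gene number of an earlier processing of the same files; the first pass is kept as an alternative. The 10 genes, the pathway lists and the marker lists were chosen with earlier results of these data known. A gene of the progenitor and patterning lists is not reported here and was left out of both. Named pathway genes are those called in a list, or the brightest 2 of a list with none called. Alternatives were other background corrections, normalizations, filters, probe rules, a slide block and leaving out each array. Normexp on the mean signal could not be run, since that column is not in the files used here, so the median signal was used, with the background capped, a choice made after seeing the uncapped result.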

Additional observations from a re-analysis of the deposited data

Results flagged for a closer look

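Dusp6 lay above control on every slide in siRNA set 1 and below it on every slide in siRNA set 2. Set 2 minus set 1 was -0.71 ± 0.35 (log2, SE). Its set 2 arrays read 0.85, -0.18 and -0.09, its set 1 arrays 1.15, 1.15 and 0.39, and its control arrays 0.99, 0.70 and 0.01. Within slides, set 2 was below control by 0.14, 0.89 and 0.10, and set 1 above it by 0.16, 0.45 and 0.38. The difference between the sets did not pass (limma adjusted p = 0.557, or 0.207 after blocking on the slide). Groups of 3 arrays were not searched for single outlying arrays.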

How the results depend on the processing

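Of 144 recomputed counts of called FGF genes, 140 stayed as they were or within 1.5 times. Only overexpression against both siRNA sets had called genes in the main fit, so most unchanged counts were 0 in both fits. With a replicate block, overexpression against control siRNAs gave 1 called gene (Etv5) in place of 0. Leaving out 1 array gave 1 to 4 called genes for overexpression against both siRNA sets, the lowest being 1 (Fgf15) without any 1 overexpression array, and 0 to 0 in the other comparisons. Fgf15 was called in all 24 settings of that comparison, Spry1 in 21, Etv4 in 13 and Etv5 in 4. No call changed direction. The first pass (15382 genes) called Fgf15, Spry1 and Etv4 too, with adjusted p of 0.0048, 0.0126 and 0.0393. Same-numbered arrays of different groups had correlated deviations (r from 0.02 to 0.6). Of these 18 pairs 16 were above 0.1, against 4 of 36 pairs with different numbers, so arrays of a slide deviated together. As 2 pairs were not above 0.1, the numbers were not taken to pair the samples, and blocked values are given as those of the slide.

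Counts over all genes moved more. With the replicate block they were 51 for overexpression against control siRNAs (42 without), 527 against both siRNA sets (330), 233 for both siRNA sets (103), 114 for set 1 (36), 365 for set 2 (157) and 33 for set 2 against set 1 (12). With normexp they were 25 for overexpression against control siRNAs, 39 for both siRNA sets, 57 for set 2 and 20 for set 2 against set 1 (30% of the calls higher, against 41.7%). Leaving out 1 array gave 18 to 55 for overexpression against control siRNAs, 106 to 330 against both siRNA sets, 17 to 87 for both sets, 4 to 83 for set 1, 10 to 143 for set 2 and 0 to 12 for set 2 against set 1. With no filter, both sets gave 37, set 2 gave 26 and set 2 against set 1 gave 0. With probes above background on all 12 arrays, overexpression against control siRNAs gave 26, and Fgf17 and Spry4 gave no value. With only the compared groups, the count was 36 for both sets and 0 for set 1, set 2 and set 2 against set 1. Causes were not tested. Some arrays hold a few spots with very bright background. Normexp without the cap put the background mean at -1436 and -2182 on overexpression replicates 1 and 2, which are among them. It put the mean at -217.6 on siRNA set 1 replicate 2, another of them. It shifted the median of all genes by 0.44 against control siRNAs and 0.39 against both siRNA sets, and called 9909 and 10693 genes, 7 of the 10 FGF genes in each. It was set aside for that reason, after its result had been seen. Fgf17 and Spry4 were limited by signal near background.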
